A study of Homo sapiens with 36 samples.

Results

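The established human colorectal cancer line LoVo was treated for 24 hours with 0.3 nM of a MEK inhibitor and compared with cells given its solvent DMSO. The 3 libraries at 0.3 nM and the 6 DMSO libraries were chosen by their labels out of 36 libraries in the series, which spans 10 doses of the inhibitor with 3 libraries each. The inhibitor is named in the study's design only as compound 33 of a medicinal chemistry report. All cultures grew in F-12K medium with serum. Per the labels, the 0.3 nM and DMSO groups differ in the compound and share the cell line and the time. The DMSO libraries are replicates 1 to 3 on each of a pair of sequencing chips, whereas the labels name no chip for the treated libraries, so chip and treatment cannot be told apart for them. The comparison asks which groups of genes shift at a dose where no single gene is called when all 36 libraries are fitted.

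MEK1 and MEK2, the products of MAP2K1 and MAP2K2, are the kinases that activate ERK, the last kinase of the RAS pathway. Active ERK switches on transcription factor genes such as EGR1 and FOSL1, ligands of the EGF receptor, and the DUSP and Sprouty genes whose products restrain the pathway. In colorectal cancer the pathway is often kept active by mutations in RAS or RAF genes, and loss of these transcripts is a common readout of MEK inhibition.

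Expression was measured by amplifying 1 short stretch of each gene from 10 ng of total RNA and counting the sequenced amplicons, so levels are compared between libraries for 1 gene and not between genes. Total counts were 4382647 to 4641017 in the 0.3 nM libraries and 2972186 to 4072743 in the DMSO libraries, so every 0.3 nM library was the deeper one, and the part of depth in the results was not tested. Levels are given as CPM, counts scaled to a common library total with TMM factors. Means carry the SD over 3 libraries at 0.3 nM and over 3 DMSO pair means, because DMSO libraries of the same number on both chips deviated together. All 10 colorectal epithelial markers were detected, with a summed CPM of 3766 to 4155 at 0.3 nM and 4333 to 4551 in DMSO, lower in every treated library. Summed counts of 9 fibroblast markers were 14 to 26 at 0.3 nM and 12 to 18 in DMSO, with COL1A2, DCN, THY1, FAP and POSTN at 0 throughout. Those of 8 blood markers were 0 to 4 at 0.3 nM and 1 to 8 in DMSO, with PTPRC, CD3E, CD3D, MS4A1 and HBB among those at 0 throughout. Those of 5 endothelial markers were 3 to 6 at 0.3 nM and 1 to 7 in DMSO, with KDR at 0.

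No single gene passed the test at 0.3 nM over all 36 libraries, while other fits called some. Of 12102 tested genes, 0 were called (0%) in edgeR's quasi-likelihood test, which required a Benjamini-Hochberg adjusted p below 0.05 for the larger of the p-values against DMSO chip 1 and chip 2. DESeq2 and limma voom also called 0. The edgeR test called 125 genes when only the 9 libraries compared were fitted, 487 when these were fitted with DMSO summed over the chips, 40 with no filter on low counts, 4 against the mean of both DMSO groups, 3 against DMSO chip 2 alone and 1 without 3 libraries of other doses that stand apart from their groups. At an unadjusted p below 0.05 against both chips in the same direction there were 330 genes, 140 higher (1.16%) and 190 lower (1.57%). Between the DMSO chips, which hold no inhibitor, a single test gave 308 genes, 140 higher (1.16%) and 168 lower (1.39%) on chip 2. The rule at 0.3 nM is the stricter one, so these counts are not measured alike. DESeq2 gave 301 and voom 355 genes at 0.3 nM. Log2 fold changes were above 0 in 6177 genes (51%) and below 0 in 5925 (49%), with a median of 0.00. In 508 genes (4.2%) all 3 libraries lay above the 6 DMSO libraries, and in 584 (4.83%) all 3 lay below.

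The spread of the fold changes at 0.3 nM was nearly level with that at 0.1 nM and below that at 1 nM. The interquartile range of log2 fold changes against DMSO ran 0.18, 0.23, 0.24 and 0.44 over the doses 0.03, 0.1, 0.3 and 1 nM, and 0.21 between the DMSO chips. Calls numbered 0 at each of the 3 lowest doses and 965 at 1 nM, 478 higher (3.95%) and 487 lower (4.02%). The same DMSO libraries serve all of these doses. The range at 0.1 nM includes replicate 2, which stood apart from its group, and the chips were compared as 3 libraries against 3. The median standard error of a log2 fold change was 0.17 over all tested genes and 0.099 over the 742 genes that averaged 200 CPM or more.

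The shifts at 0.3 nM were shared by lists of genes with a common role. ERK output genes, immediate early genes, ribosome biogenesis genes and amino acid stress genes had a lower mean level in each of the 3 libraries than in any DMSO library. Cholesterol synthesis, fatty acid synthesis, G1/S and lysosome genes had a higher one. Of 27 lists with tested members, these 8 and the colorectal epithelial markers, at -0.03, -0.06 and -0.14 against -0.01 to 0.02 in DMSO, were those whose 0.3 nM libraries lay on 1 side of all 6 DMSO libraries. In the other 18 lists the libraries overlapped. A list could also lie apart from DMSO at a lower dose and not at 0.3 nM. Glycolysis and hypoxia genes stood at -0.13, -0.17 and -0.11 at 0.1 nM, against -0.08 to 0.05 in DMSO. At 0.3 nM they stood at 0.03, -0.11 and -0.06. The lists were chosen with earlier results of these data known. Each list is described by counts and a median, read against all tested genes, of which 51% were higher and 49% lower, 4.2% lay above and 4.83% below all DMSO libraries, and 3.95% were called higher and 4.02% lower at 1 nM.

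**Figure D1:**
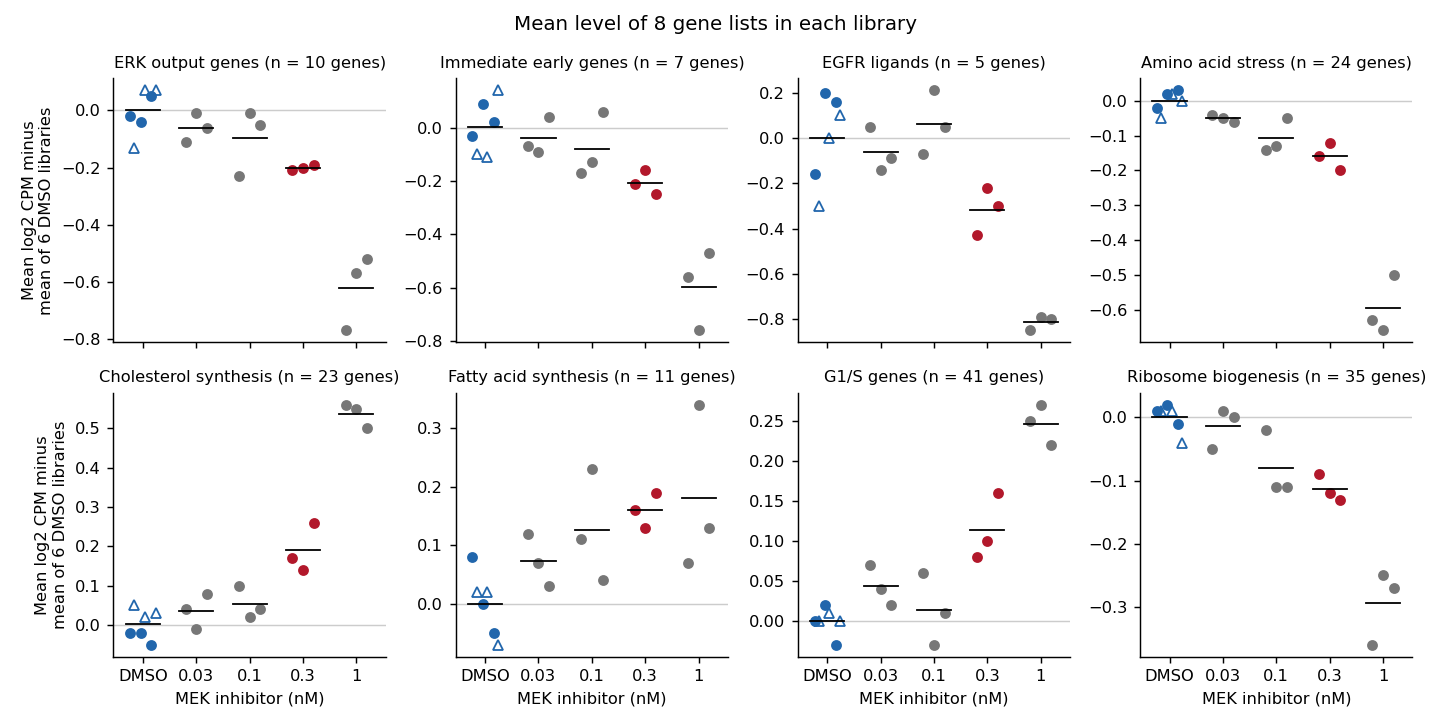
Mean level of 8 gene lists in each library, as the mean over tested members of log2 CPM minus the mean of the 6 DMSO libraries (vertical axis), by dose (horizontal axis). Red points are the 3 libraries at 0.3 nM, blue filled circles and open triangles the DMSO libraries of chip 1 and chip 2, grey points other doses, and black lines group means. The ERK output genes stood at -0.21, -0.20 and -0.19 at 0.3 nM, below the lowest DMSO library at -0.13.

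Among 10 genes whose level is widely used as a readout of ERK activity, 9 were lower and 1 was higher at 0.3 nM, with a median log2 fold change of -0.15, and in 4 of them every 0.3 nM library lay below every DMSO library (4.83% of all genes). The mean level of the list was -0.21, -0.20 and -0.19 in the 3 libraries at 0.3 nM, against a lowest value of -0.13, a median of 0.02 and a highest value of 0.07 in the DMSO libraries. The 3 libraries thus lay close together and below all DMSO libraries. The median ran -0.08, -0.07, -0.15 and -0.53 over the doses 0.03, 0.1, 0.3 and 1 nM, and at 1 nM 5 of the 10 were called lower.

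PHLDA1, an ERK-induced protein with a pleckstrin homology domain, had 379, 373 and 345 CPM at 0.3 nM, against 417, 435 and 462 CPM as the lowest, median and highest of the DMSO libraries. All treated libraries were below all DMSO libraries, the means were 365 ± 18.4 CPM at 0.3 nM and 439 ± 18.7 CPM in DMSO, and the log2 fold change was -0.27 (SE 0.094; edgeR, unadjusted p = 0.0105). The receptor EPHA2 had 410, 403 and 393 CPM at 0.3 nM against 432, 447 and 467 CPM in DMSO, a log2 fold change of -0.16 (SE 0.12). DUSP6, the phosphatase that inactivates ERK in the cytoplasm, had 55.5, 57.4 and 58.4 CPM at 0.3 nM against 58.5, 63.7 and 69.5 CPM in DMSO, a log2 fold change of -0.17 (SE 0.12). Its highest treated library and its lowest DMSO library were almost level. The Sprouty inhibitor SPRY4 was rare, with 0.882, 1.60 and 1.56 CPM at 0.3 nM against 1.84, 2.45 and 3.77 CPM in DMSO, and its log2 fold change of -0.99 had an SE of 0.53.

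The other 6 readout genes overlapped with DMSO. The nuclear ERK phosphatase DUSP4 stood at -0.14, the transcription factor genes ETV5 and ETV4 at -0.13 and 0.06, cyclin D1 (CCND1) at -0.06, the ephrin receptor EPHA4 at -0.29 and SPRY2 at -0.02. ETV4 and SPRY2 took the other sign under some of the alternatives tried. All 6 stood at a log2 fold change of -0.04 or lower at 1 nM, from -0.04 for CCND1 to -0.60 for EPHA4.

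Of 10 further genes known to respond to ERK, 9 were lower and 1 was higher, with a median of -0.18. Their mean level was -0.08, -0.08 and -0.18 at 0.3 nM against -0.11 to 0.09 in DMSO, so the libraries overlapped. FOSL1, which is part of the AP-1 transcription factor, had 62.6, 57.0 and 51.3 CPM at 0.3 nM, against 66.8, 73.0 and 80.4 CPM as the lowest, median and highest in DMSO. All treated libraries were lower, with a log2 fold change of -0.36 (SE 0.13; edgeR, unadjusted p = 0.0184). DUSP5, a nuclear ERK phosphatase, had 40.3, 40.3 and 32.5 CPM at 0.3 nM against 41.6, 46.9 and 50.4 CPM in DMSO, a log2 fold change of -0.31 (SE 0.14). IER3, an early response survival gene, and EMP1, an epithelial membrane protein, stood at -0.29 and -0.23 with overlapping libraries. The pathway inhibitor genes SPRED1 and SPRED2 stood at -0.20 and -0.16, and SPRED2 lay below all DMSO libraries. The exception was ETV1 at 0.80, which also overlapped. SPRED3, SPRY1, KCNN4 and UPP1 did not pass the filter on low counts.

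Immediate early genes, which growth signals switch on without new protein synthesis, were lower in 7 of 7 tested members, with a median of -0.09. The median was -0.15 without 0.3 nM replicate 2 and -0.15 against DMSO chip 1 alone. With a library or DMSO pair left out it ran from -0.15 to -0.06. The mean level of the list was -0.21, -0.16 and -0.25 at 0.3 nM against -0.11 to 0.14 in DMSO. Its median ran -0.03, -0.08, -0.09 and -0.28 over the doses 0.03, 0.1, 0.3 and 1 nM. EGR1, a zinc finger transcription factor, led the list and was 1 of the 6 genes with the smallest p among all genes that were lower. It had 25.1, 28.6 and 25.2 CPM at 0.3 nM, against 32.3, 41.8 and 48.7 CPM as the lowest, median and highest of the DMSO libraries. Every treated library was below every DMSO library, the means were 26.3 ± 1.98 CPM at 0.3 nM and 41.0 ± 5.19 CPM in DMSO, and the log2 fold change was -0.64 (SE 0.16; edgeR, unadjusted p = 0.000967). EGR1 ran -0.16, -0.36, -0.64 and -1.69 over the doses 0.03, 0.1, 0.3 and 1 nM. The nuclear receptor gene NR4A1 stood at -0.44 (SE 0.31), and KLF6, JUNB, ATF3, FOS and MYC stood between -0.11 and -0.06, all with overlapping libraries. MYC, FOS and JUNB each stood at -0.06, but JUNB stood at 0.11 against DMSO chip 2 alone. FOSB, JUN, EGR2, EGR3 and IER2 did not pass the filter.

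The promoter of EGR1 is shown because this gene had the lowest fold change among the immediate early genes and because the CArG box, the sequence bound by serum response factor, is the textbook element through which ERK acts on such genes. The stretch runs from 250 bases before to 50 bases after the start of the gene (RefSeq, GRCh38.p14, chr5:138465229-138465528, plus strand), and capitals mark the CArG boxes.
EGR1: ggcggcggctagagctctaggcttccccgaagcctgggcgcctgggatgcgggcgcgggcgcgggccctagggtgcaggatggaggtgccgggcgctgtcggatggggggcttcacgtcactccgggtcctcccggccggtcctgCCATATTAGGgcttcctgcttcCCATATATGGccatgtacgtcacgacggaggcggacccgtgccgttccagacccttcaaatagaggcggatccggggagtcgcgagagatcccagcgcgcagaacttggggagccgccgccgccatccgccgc
It holds 2 CArG boxes, CCATATTAGG at positions -105 to -96 and CCATATATGG at -83 to -74 relative to the start, and they do not overlap. Searched on both strands, a CArG box occurred in 1 of 8 promoters of the tested immediate early genes (12.5%), that of EGR1, and in 1.29% of 35116 promoters or 1.11% of 12696 promoters of tested genes. No promoter of the ERK output genes, the further ERK-responsive genes or the EGFR ligands held one in this window.

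EGFR ligands, growth factors that cells release to act on themselves and their neighbours, were lower in 5 of 5 tested members, with a median of -0.44, which was -0.28 without 0.3 nM replicate 1 and -0.29 without DMSO replicate 3 of both chips. The median ran -0.09, 0.00, -0.44 and -0.89 over the doses 0.03, 0.1, 0.3 and 1 nM. HBEGF had 59.7, 53.1 and 55.9 CPM at 0.3 nM, against 65.6, 76.5 and 85.5 CPM as the lowest, median and highest in DMSO, and its log2 fold change was -0.44 (SE 0.15; edgeR, unadjusted p = 0.00877). AREG had 81.8, 94.5 and 80.0 CPM at 0.3 nM, against 105, 110 and 146 CPM in DMSO, and its log2 fold change was also -0.44 (SE 0.14; edgeR, unadjusted p = 0.00977). In both genes the groups did not overlap. EREG had 54.4, 78.7 and 87.6 CPM at 0.3 nM against 71.3, 108 and 134 CPM in DMSO and overlapped. Its lowest libraries were replicate 1 at 0.3 nM and replicate 1 on both DMSO chips, at 73.4 and 71.3 CPM. Its log2 fold change was -0.46 (SE 0.25), and that of BTC was -0.13 (SE 0.20). The mean level of the list was -0.43, -0.22 and -0.30 at 0.3 nM against -0.30 to 0.20 in DMSO, where the lowest DMSO library was replicate 1 of chip 2.

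The genes of the pathway's own proteins showed no common direction. Of 16 tested members, which encode RAS and RAF proteins, adaptors and kinases, 6 were higher and 10 lower, with a median of -0.04 and overlapping libraries. The targets of the inhibitor stood at -0.07 (MAP2K1, SE 0.093) and 0.00 (MAP2K2, SE 0.10), BRAF at -0.03 and MAPK3, which encodes ERK1, at 0.11. The exchange factor gene SOS1 had the smallest p of the list at -0.24 (SE 0.17; edgeR, unadjusted p = 0.173). The reference genes GAPDH and ACTB stood at -0.04 and 0.18.

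**Figure D2:**
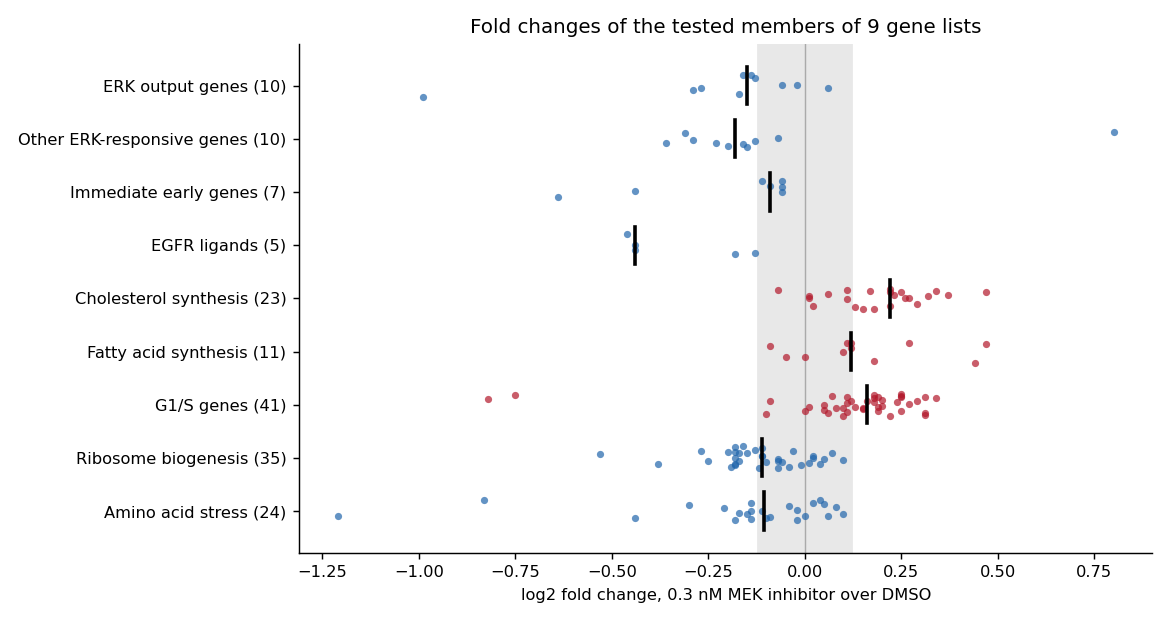
Log2 fold change at 0.3 nM over DMSO (horizontal axis) of each tested member of 9 gene lists (vertical axis, number of members in brackets), with a black bar at the list median and the interquartile range of all 12102 genes as a grey band. Lists with a median below 0 are blue and those above 0 red. In the cholesterol list 22 of 23 points lie above 0, and in the EGFR ligand list 5 of 5 lie below 0.

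Lipid synthesis genes were higher. Of 23 tested cholesterol genes, 22 were higher and 1 was lower at 0.3 nM, with a median of 0.22, and in 7 every treated library lay above every DMSO library (4.2% of all genes). The mean level of the list was 0.17, 0.14 and 0.26 at 0.3 nM against -0.05 to 0.05 in DMSO. The median ran 0.04, 0.08, 0.22 and 0.56 over the doses 0.03, 0.1, 0.3 and 1 nM, and at 1 nM 14 of the 23 were called higher. The difference between the DMSO chips had a median of 0.05 for the same genes.

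HMGCS1, an early enzyme of the pathway, had 81.1, 74.1 and 80.5 CPM at 0.3 nM, against 56.4, 60.0 and 67.9 CPM as the lowest, median and highest in DMSO. All treated libraries were higher, with a log2 fold change of 0.37 (SE 0.14; edgeR, unadjusted p = 0.0391). FDFT1, the squalene synthase, had 207, 181 and 184 CPM at 0.3 nM against 143, 158 and 177 CPM in DMSO, a log2 fold change of 0.27 (SE 0.10). SREBF2, the transcription factor that controls the pathway, had 196, 203 and 221 CPM at 0.3 nM against 169, 176 and 186 CPM in DMSO, a log2 fold change of 0.22 (SE 0.10). INSIG1, which holds that factor back in the endoplasmic reticulum, DHCR7 and NSDHL also lay above all DMSO libraries, at 0.29, 0.22 and 0.13, although NSDHL stood at -0.25 at 1 nM. LSS did not pass the filter, and no row was matched to SC5D. The sequence TCACNCCAC, a sterol regulatory element, occurred on either strand in 1 of 20 promoters of the tested cholesterol genes (5%), in 1.13% of all promoters and in 1.03% of those of tested genes.

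SCD, the desaturase that makes monounsaturated fatty acids, had the smallest p of all genes. It had 309, 297 and 292 CPM at 0.3 nM, against 201, 214 and 231 CPM as the lowest, median and highest of the DMSO libraries. The groups were far apart relative to their spread, with means of 299 ± 8.83 CPM at 0.3 nM and 216 ± 7.57 CPM in DMSO, a log2 fold change of 0.47 (SE 0.094; edgeR, unadjusted p = 4.31e-05, adjusted p = 0.521). It was called against the mean of both DMSO groups, against DMSO chip 2 alone, when only the 9 libraries compared were fitted (adjusted p = 5.4e-06 in edgeR) and without 3 libraries of other doses that stand apart from their groups. Its log2 fold change ran 0.26, 0.19, 0.47 and 1.04 over the doses 0.03, 0.1, 0.3 and 1 nM. Of 11 tested fatty acid genes, 9 were higher and 2 lower, with a median of 0.12. The median was 0.20 without 0.3 nM replicate 1 or without DMSO replicate 1 of both chips, and 0.07 without 0.3 nM replicate 3. It ran 0.06, 0.10, 0.12 and 0.27 over the doses 0.03, 0.1, 0.3 and 1 nM. Mean levels were 0.16, 0.13 and 0.19 at 0.3 nM and 0.11, 0.23 and 0.04 at 0.1 nM, against -0.07 to 0.08 in DMSO. The elongase ELOVL5 and the desaturase FADS2 lay above all DMSO libraries at 0.27 (SE 0.11) and 0.44 (SE 0.19), while the carboxylase ACACA overlapped at 0.18. FADS2 stood at -0.02 at 1 nM, unlike ELOVL5 at 0.41.

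**Figure D3:**
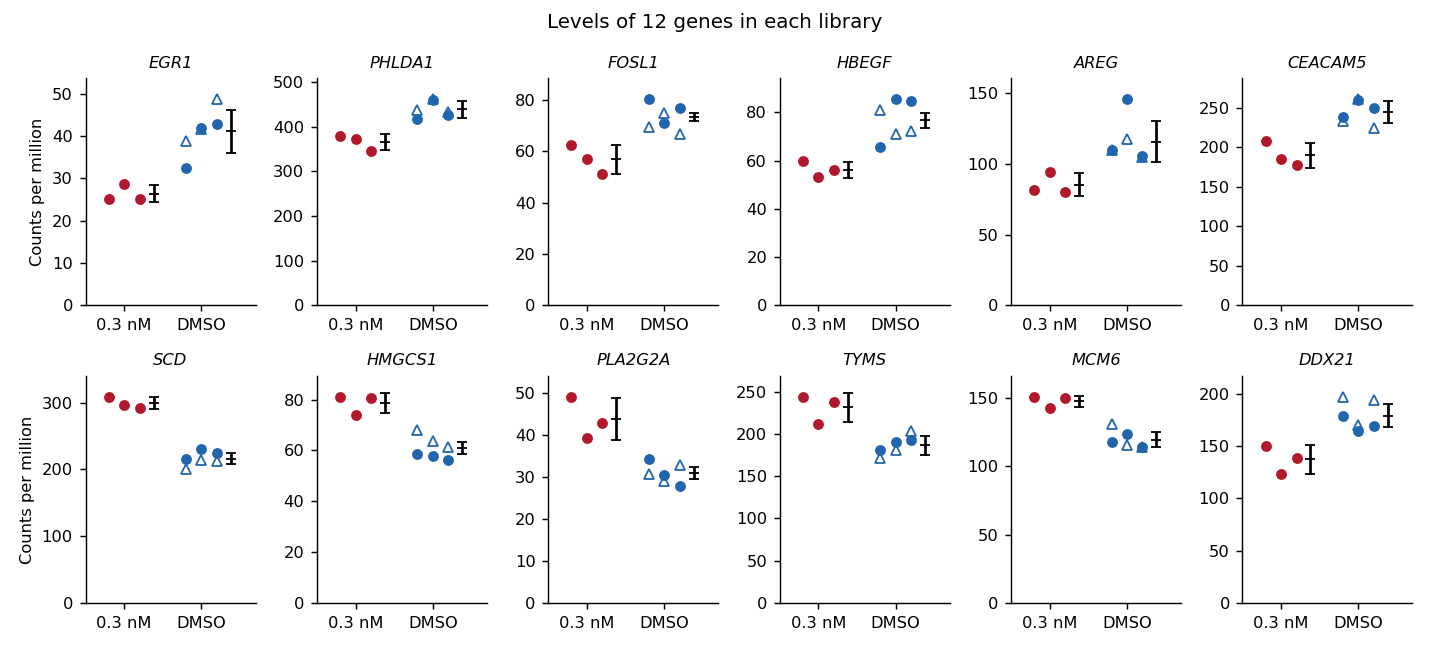
CPM (vertical axes, from 0) of 12 genes in the 3 libraries at 0.3 nM (red) and in the 6 DMSO libraries (blue; filled circles chip 1, open triangles chip 2), with the mean and SD over 3 libraries or 3 DMSO pair means beside them. In all 12 genes the red points lie on 1 side of the blue ones, and none was called over all 36 libraries, while SCD, TYMS, MCM6, EGR1, HBEGF, PHLDA1, PLA2G2A, CEACAM5 and DDX21 were called when only these 9 libraries were fitted.

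Genes of the G1/S transition, which prepare and carry out DNA replication, were higher in 36 of 41 tested members and lower in 5, with a median of 0.16. Their mean level was 0.08, 0.10 and 0.16 at 0.3 nM against -0.03 to 0.02 in DMSO. The median ran 0.04, -0.03, 0.16 and 0.36 over the doses 0.03, 0.1, 0.3 and 1 nM, and at 1 nM 16 were called higher, and it was -0.74 at 1000 nM. TYMS, the thymidylate synthase, had 244, 212 and 238 CPM at 0.3 nM, against 171, 186 and 204 CPM as the lowest, median and highest in DMSO, a log2 fold change of 0.31 (SE 0.10; edgeR, unadjusted p = 0.00454). MCM6, MCM3 and MCM4 encode subunits of the replicative helicase. MCM6 had 151, 143 and 150 CPM at 0.3 nM against 114, 117 and 131 CPM in DMSO, a log2 fold change of 0.31 (SE 0.10; edgeR, unadjusted p = 0.00562). MCM3 had 254, 266 and 251 CPM at 0.3 nM against 211, 216 and 224 CPM in DMSO, a log2 fold change of 0.25 (SE 0.086; edgeR, unadjusted p = 0.00775). MCM4 had 310, 261 and 294 CPM at 0.3 nM against 210, 239 and 245 CPM in DMSO, a log2 fold change of 0.31 (SE 0.12). In these 4 genes, in RRM2 at 0.20 and in FEN1 at 0.19, every treated library was above every DMSO library. The subunit genes MCM7 and MCM5 stood at 0.15 and 0.11 and overlapped. RFC5, a clamp loader subunit, went the other way at -0.82 with all treated libraries below DMSO, and E2F2 stood at -0.75 with overlap. MCM2 did not pass the filter.

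The promoters of MCM6 and MCM3 are shown because their genes were among the 4 of the list with the smallest p and because E2F factors, the known regulators of G1/S genes, bind the sequences TTTCCCGC and TTTGGCGC, which capitals mark. Both run from 250 bases before to 50 bases after the start (RefSeq, GRCh38.p14), MCM6 at chr2:135876394-135876693 and MCM3 at chr6:52284693-52284992, both on the minus strand.
MCM6: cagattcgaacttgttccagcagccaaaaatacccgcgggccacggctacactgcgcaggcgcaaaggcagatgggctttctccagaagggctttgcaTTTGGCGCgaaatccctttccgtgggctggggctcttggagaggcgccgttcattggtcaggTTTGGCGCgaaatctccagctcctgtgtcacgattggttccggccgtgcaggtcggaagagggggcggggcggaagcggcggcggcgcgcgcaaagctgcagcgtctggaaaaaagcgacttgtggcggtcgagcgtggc
MCM3: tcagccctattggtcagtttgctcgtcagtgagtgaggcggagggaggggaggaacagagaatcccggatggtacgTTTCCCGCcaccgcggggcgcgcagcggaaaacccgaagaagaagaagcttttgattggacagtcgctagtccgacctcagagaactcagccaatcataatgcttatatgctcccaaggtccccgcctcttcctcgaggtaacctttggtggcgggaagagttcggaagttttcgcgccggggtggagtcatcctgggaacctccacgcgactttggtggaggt
MCM6 holds TTTGGCGC at positions -152 to -145 and -90 to -83, and MCM3 holds TTTCCCGC at -174 to -167, with no overlap between matches. Searched on both strands, at least 1 of these sequences occurred in 18 of 47 promoters of tested G1/S genes (38.3%), some of which have several promoters, in 2.27% of all 35116 promoters and in 3.48% of those of tested genes.

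Genes of the G2 phase and mitosis did not share this direction. Of 36 tested members 16 were higher and 20 lower, with a median of -0.05 and overlapping libraries. PRC1, which organises the central spindle, had 51.1, 58.6 and 42.6 CPM at 0.3 nM, against 70.0, 77.8 and 89.7 CPM in DMSO and no overlap, a log2 fold change of -0.62 (SE 0.26). The kinetochore genes CENPE and NDC80 and the kinesin gene KIF23 stood at -0.49, -0.48 and -0.38 with overlap.

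Ribosome biogenesis genes were lower in 28 of 35 tested members and higher in 7, with a median of -0.11, and 7 lay below all DMSO libraries (4.83% of all genes). Their mean level was -0.09, -0.12 and -0.13 at 0.3 nM against -0.04 to 0.02 in DMSO. The median ran -0.01, -0.09, -0.11 and -0.27 over the doses 0.03, 0.1, 0.3 and 1 nM. DDX21, a nucleolar helicase, had 150, 123 and 138 CPM at 0.3 nM, against 164, 174 and 197 CPM as the lowest, median and highest in DMSO, a log2 fold change of -0.38 (SE 0.11; edgeR, unadjusted p = 0.00453). RRP1, which acts in ribosomal RNA processing, had 65.2, 66.8 and 69.1 CPM at 0.3 nM against 72.3, 81.5 and 87.8 CPM in DMSO, a log2 fold change of -0.27 (SE 0.11). HEATR1, needed to transcribe ribosomal RNA, had 123, 120 and 119 CPM at 0.3 nM against 128, 138 and 149 CPM in DMSO, a log2 fold change of -0.19 (SE 0.091). NCL, the nucleolar protein nucleolin, stood lowest in the list at -0.53 (SE 0.21), with 577, 542 and 521 CPM at 0.3 nM against 714, 786 and 879 CPM in DMSO. LYAR, DKC1 and NOP58 also lay below all DMSO libraries. The E-box CACGTG, the site of MYC and its partners, occurred on either strand in 12 of 36 promoters of the tested list (33.3%). It occurred in 7.26% of all promoters and in 9.44% of those of tested genes. The RNA of MYC stood at -0.06, and the part of MYC in these shifts was not tested. The ribosomal protein genes had a median of -0.01, with 20 of 43 higher and 23 lower.

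Genes of the amino acid stress response, which the transcription factor ATF4 controls, were lower in 18 of 24 tested members and higher in 6, with a median of -0.11, which was -0.07 against DMSO chip 2 alone. Their mean level was -0.16, -0.12 and -0.20 at 0.3 nM against -0.05 to 0.03 in DMSO. The transcription factor gene CEBPB stood lowest, with 7.94, 7.78 and 5.57 CPM at 0.3 nM, against 13.5, 16.8 and 18.2 CPM in DMSO, a log2 fold change of -1.21 (SE 0.34; edgeR, unadjusted p = 0.00184). ALDH1L2, a mitochondrial folate enzyme, had 59.1, 57.4 and 57.5 CPM at 0.3 nM against 72.4, 79.9 and 84.5 CPM in DMSO, a log2 fold change of -0.44 (SE 0.15). The cystine transporter SLC7A11 and the mTORC1 inhibitor DDIT4 lay below all DMSO libraries too, at -0.21 and -0.17. ATF4 stood at -0.11, the asparagine synthetase ASNS at -0.18 and PSAT1 of serine synthesis at -0.04, all with overlap. The median ran -0.02, -0.09, -0.11 and -0.41 over the doses 0.03, 0.1, 0.3 and 1 nM. At 1 nM, 12 of the 24 were called lower.

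Outside these lists, the genes with the smallest p were of mixed kinds. The secreted phospholipase PLA2G2A had 49.2, 39.3 and 43.0 CPM at 0.3 nM, against 27.8, 30.6 and 34.3 CPM in DMSO, a log2 fold change of 0.50 (SE 0.13), and it stood at 1.68 at 1 nM. CCDC85B, at 0.50 (SE 0.11), also differed by -0.29 between the DMSO chips, and UBA7, the enzyme that activates ISG15, stood at 0.57 (SE 0.16). C20orf151 had 18 counts over the 3 libraries at 0.3 nM and 0 over the 6 DMSO libraries, at least 9.39-fold higher when DMSO is set to 3 counts as its group's floor. The other low doses 0.03, 0.1 and 1 nM held 8, 6 and 13 counts of it.

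Among the genes that were lower, PDK1, a kinase that inhibits pyruvate dehydrogenase, had 11, 9.15 and 8.69 CPM at 0.3 nM, against 16.4, 17.3 and 21.8 CPM in DMSO, a log2 fold change of -0.90 (SE 0.23; edgeR, unadjusted p = 0.00033). The disulfide isomerase PDIA4 had 29.3, 30.2 and 30.8 CPM at 0.3 nM against 41.0, 45.8 and 53.7 CPM in DMSO, a log2 fold change of -0.64 (SE 0.18). TNFRSF12A, the receptor for TWEAK, and BHLHE41, a repressor of the circadian clock, both stood at -0.41 (SE 0.12 and 0.11), and LOC100287314 at -0.84 (SE 0.22). CEACAM5, the carcinoembryonic antigen, had 208, 185 and 177 CPM at 0.3 nM, against 224, 244 and 261 CPM in DMSO, a log2 fold change of -0.36 (SE 0.10). SOX9, a crypt transcription factor, stood at -0.34 (SE 0.11), and unlike CEACAM5, at -0.98 at 1 nM, it stood at -0.20 there. In all of these genes every 0.3 nM library was below every DMSO library.

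The neighbouring doses were compared with 0.3 nM directly, and both steps share the 0.3 nM libraries with the comparison to DMSO. Between 0.3 and 0.1 nM, 0 of 12102 genes were called in edgeR (0%), with 664 higher (5.49%) and 541 lower (4.47%) at an unadjusted p below 0.05, and DESeq2 called 1, MCM3. In this step 49.1% of all genes were lower at 0.3 nM than at 0.1 nM. Of 10 ERK output genes 8 were lower, with a median of -0.08. All 10 further ERK-responsive genes and all 5 EGFR ligands were lower, with medians of -0.14 and -0.43. Of 23 cholesterol genes 20 were higher, with a median of 0.14, and of 41 G1/S genes 34, with a median of 0.10, where 50.9% of all genes were higher. Ribosome biogenesis and amino acid stress genes had medians of -0.02 and -0.01, with 19 of 35 and 13 of 24 lower. Of 11 fatty acid genes 6 were higher and 5 lower, with a median of 0.07. At 0.1 nM, replicate 2 stood apart from the other replicates and had the highest mean level of the EGFR ligands, at 0.21 against -0.07 and 0.05. Without it 7 of 10 ERK output genes (median -0.09), 9 of 10 further ERK-responsive genes (-0.15) and 5 of 5 EGFR ligands (-0.32) were lower. So were 27 of 35 ribosome biogenesis genes (-0.05) and 16 of 24 amino acid stress genes (-0.08). Higher were 20 of 23 cholesterol genes (0.10), 31 of 41 G1/S genes (0.09) and 6 of 11 fatty acid genes (0.04). Of all 12222 genes tested without it, 5945 were higher and 6277 lower.

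Between 1 nM and 0.3 nM, 308 genes were called in edgeR, 162 higher (1.34%) and 146 lower (1.21%). The count was 61 when only these groups were fitted and 130, 117 and 133 without 0.3 nM replicates 1, 2 and 3, and 151 without 1 nM replicate 1. DUSP6 changed by -0.66, PHLDA1 by -0.38, SPRY2 by -0.48 and DUSP4 by -0.41, the 4 ERK output genes called in this step. EGR1 changed by -1.05 (SE 0.19; edgeR, adjusted p = 0.000391), FOSL1 by -0.62 and HBEGF by -0.68. SCD rose by 0.57 (SE 0.092; edgeR, adjusted p = 0.00018) and PLA2G2A by 1.17 (SE 0.12; edgeR, adjusted p = 1.58e-09). Of the cholesterol genes 8 rose, among them HMGCS1 by 0.58, and of the G1/S genes 5 rose, while MCM6 stood at 0.29 and TYMS at 0.16 without a call.

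**Figure D4:**
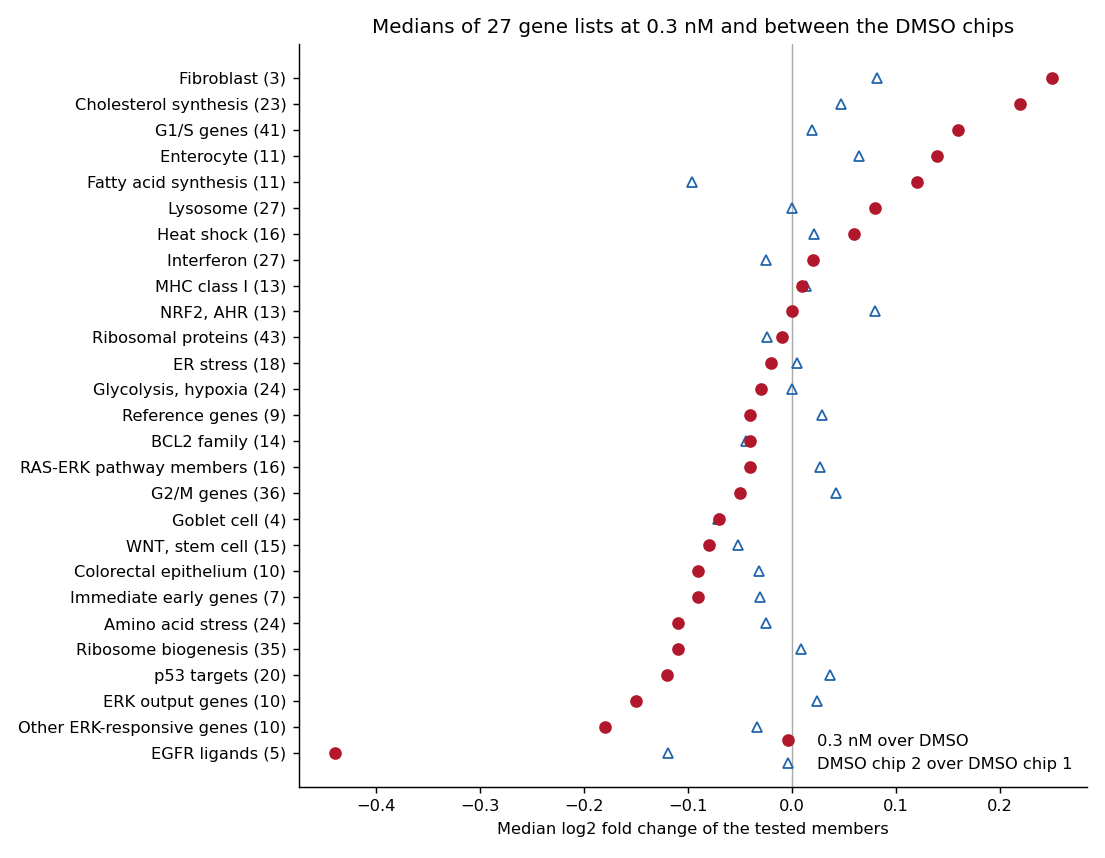
Median log2 fold change of the tested members (horizontal axis) of 27 gene lists (vertical axis, number of members in brackets) at 0.3 nM over DMSO (red circles) and between the DMSO chips, chip 2 over chip 1 (blue triangles). The EGFR ligands have the lowest median at -0.44, cholesterol synthesis stands at 0.22 and G1/S at 0.16, and the list of 3 rare fibroblast markers at 0.25 with overlapping libraries.

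The number of single genes called at 0.3 nM differed between fits, which also differ in the genes that pass the filter, and what sets the count was not tested. When only the 9 libraries compared were fitted, 125 of 11447 genes were called, 23 higher (0.201%) and 102 lower (0.891%). Only 23 of the 125 belong to any of the gene lists. Among these list members were SCD, TYMS, MCM3, MCM4 and MCM6, called higher. EGR1, HBEGF, PHLDA1, DDX21, NCL, CEBPB, PDK1, PDIA4, CEACAM5, SOX9, PRC1 and RFC5 were list members called lower. Outside the lists, RPL39 (-0.41), PPP2CA (-0.87) and GPRC5A (-0.75) were called lower. So were the histone genes HIST1H1B, HIST1H1C, HIST1H1E, HIST1H2AG, HIST1H2AM, HIST1H3F and HIST1H4D, while HIST1H3J was called higher. With 3 sums of the same-numbered DMSO libraries in place of the 6, a choice made after the data were seen, 487 of 11738 were called, 159 higher (1.35%) and 328 lower (2.79%), and they included the 125. Over all 36 libraries 74 of the 125 had an unadjusted p below 0.05.

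The 102 lower genes also varied among libraries given an equal dose. Their mean level was -0.50, -0.49 and -0.58 at 0.3 nM, against -0.07 to 0.11 in the DMSO libraries. It was -0.04, -0.06 and -0.34 in the 3 libraries at 0.03 nM, -0.36, -0.09 and -0.14 at 0.1 nM and -2.06, -1.30 and -0.76 at 1000 nM. The libraries lay closer together at 1 nM, with -0.87, -1.07 and -0.94, and at 10 nM, with -1.14, -1.18 and -1.34. Wider ranges were seen at 3 nM (-0.68, -0.61 and -0.92) and 30 nM (-1.66, -1.66 and -0.98). The same held at 100 nM (-0.84, -1.21 and -1.38) and 300 nM (-1.54, -1.43 and -1.94). The part of differences between libraries of an equal dose in the calls was not tested. The main component of the differences between libraries of 1 group held 21.8% of that variance over 9050 genes. It scored -8.89, -7.88 and -7.99 in the 0.3 nM libraries and -1.50 to 1.84 in the DMSO libraries. The score also varied within other doses, with 1.19, -0.64 and -8.64 at 0.03 nM and -5.28, 8.24 and -0.50 at 0.1 nM. At 1000 nM it was -37.38, -13.97 and 5.94. This score was added, after the data were seen, as a covariate to the fit of all 36 libraries. There 0 genes were called, as without it, and the covariate was not tried in the fit of the 9 libraries. With it the list medians were -0.17 for ERK output genes, -0.24 for further ERK-responsive genes and -0.31 for EGFR ligands. They were 0.19 for cholesterol, 0.17 for G1/S and -0.14 for ribosome biogenesis genes.

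**Figure D5:**
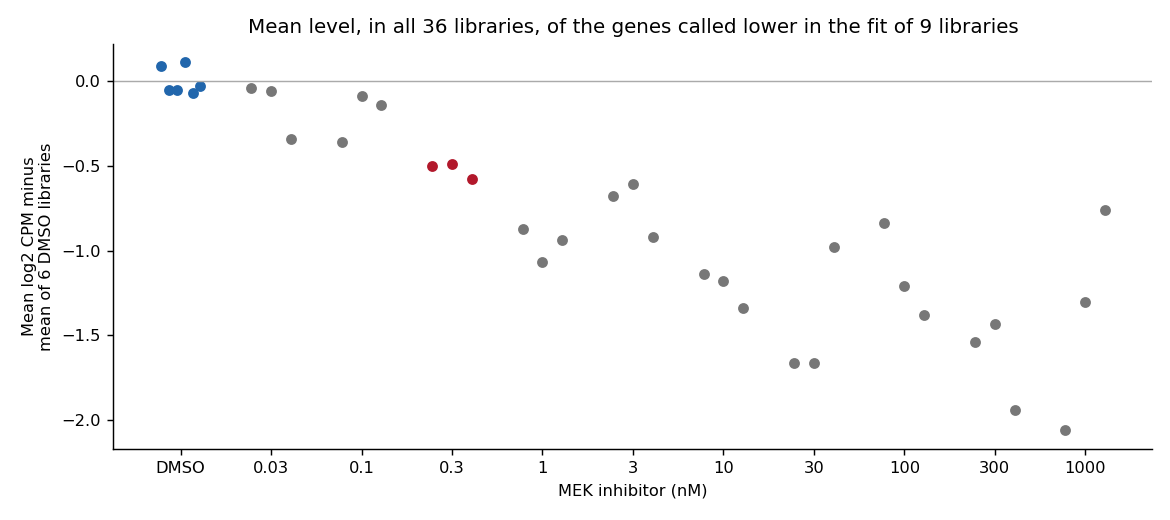
Mean log2 CPM, minus the mean of the 6 DMSO libraries (vertical axis), of the 102 genes called lower when only the 9 libraries compared were fitted, in every library of the series by dose (horizontal axis). Red points are the libraries at 0.3 nM (-0.50, -0.49 and -0.58), blue points DMSO and grey points other doses, where the 3 libraries of 1000 nM run from -2.06 to -0.76. The genes were chosen on the red and blue points.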

How the data were processed

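Raw counts of amplicon reads per gene were used as the authors deposited them, and hg19 is the build named per the submitters' processing notes. Neither aligner nor counter is given in the sources used here. The 10 spike-in rows, all at 0 counts, were dropped, leaving 20802 genes. Genes were filtered with filterByExpr (12102 kept) and scaled with TMM, and edgeR 4.0.16 (R 4.3.3) quasi-likelihood tests with Benjamini-Hochberg adjustment were fitted over all 36 libraries in 12 groups. A gene was tested at 0.3 nM against each DMSO chip, and the larger p was kept where both directions matched. Fold changes are against the mean of both chips, and an SE is the larger of those against either chip. DESeq2 1.42.0 and limma 3.58.1 were alternatives. The procedure was tested on simulated data.

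Members and lists were chosen with earlier results of these data known. The genes named were the ERK output list, 6 pathway and reference genes, the members of each list with the smallest p, the 6 higher and 6 lower genes with the smallest p, and genes called by an alternative that called 10 or fewer. List members whose libraries did not overlap, and further members of the lists, were named after their values were seen. Same-numbered DMSO libraries of the chips deviated together (correlations of 0.16 to 0.31 over 8476 genes), so DMSO errors are over 3 pair means. The labels speak of biological replicates without saying how cultures were separated, so p-values reflect only how far these samples spread, which may be technical. Amplicons of near-identical copies may share reads, which leaves ribosomal protein values uncertain. Promoters are RefSeq sequences of GRCh38.p14. Values of a few genes under the naming rule are not reported here.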

Additional observations from a re-analysis of the deposited data

How the results depend on the processing

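At 0.3 nM against DMSO, 0 genes were called with DESeq2, voom, DESeq2 size factors, a filter of 1 CPM, DMSO chip 1 alone, the covariate and each library left out (0 to 0). There were 3 calls against DMSO chip 2 alone (CCDC85B, SCD, XRCC1), 4 against the mean of both DMSO groups (among them C20orf151, CCDC85B and SCD), 1 with DMSO summed over chips (C20orf151), 40 with no filter on low counts, 125 from only the 9 libraries, 487 from 0.3 nM and the DMSO sums, and 1 (SCD) without 0.1 nM replicate 2, 1 nM replicate 1 and 1000 nM replicate 1, which stand apart from their groups. Against 0.1 nM, 0 became 1 with DESeq2, 86 with no filter and 0 to 20 with a library left out, the 20 without 0.1 nM replicate 1. Between 1 and 0.3 nM, 308 became 488 with no filter, 61 from only those groups and 117 to 378 with a library left out, with 130, 117 and 133 without 0.3 nM replicates 1, 2 and 3 and 151 without 1 nM replicate 1. Between the DMSO chips, 0 became 2 with DESeq2, with no filter, from only those groups and on leaving out those 3 libraries together, and 1 with the covariate; leaving out a library gave 0 to 0.

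Medians of the lead lists kept their sign. With a library or DMSO pair left out they ran from -0.17 to -0.11 for ERK output, -0.23 to -0.16 for other ERK-responsive genes, -0.47 to -0.28 for EGFR ligands, 0.16 to 0.23 for cholesterol, 0.14 to 0.18 for G1/S and -0.13 to -0.09 for ribosome biogenesis. Against chip 1 alone ERK output stood at -0.19. Against chip 2 alone ERK output stood at -0.11, other ERK-responsive genes at -0.24 and EGFR ligands at -0.38. The covariate gave -0.24 and -0.31 for those last lists and -0.14 for ribosome biogenesis. Ribosome biogenesis stood at -0.12 with voom, -0.10 with no filter, -0.09 with the 1 CPM filter, -0.13 with DMSO summed and -0.12 when the sums were fitted alone, and G1/S at 0.18 with voom. The causes were not tested.

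Genes near 0 turned sign. SPRY2 reached 0.06 against chip 1 and 0.01 with the covariate, and ran from -0.08 to 0.01 with a library left out. MAP2K2 reached 0.06 against chip 2, 0.004 with no filter and 0.01 with the 1 CPM filter, and ran from -0.04 to 0.02 with a library left out. BRAF reached 0.03 against chip 1 and JUNB 0.11 against chip 2. With a library left out ETV4 ran from -0.003 to 0.13 and GAPDH from -0.12 to 7e-06. OAS2 reached 0.11 with voom, 0.41 against chip 2 and 0.33 with the covariate, and ran from -0.23 to 0.53 with a library left out. IRF7 reached -0.16 against chip 1 and ran from -0.02 to 0.33 with a library left out, and LUM ran from -0.13 to 0.87.

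The replicate block gave 0 calls at 0.3 nM and 309 between 1 and 0.3 nM, and changed no call count by over 1.5 times. Same-numbered 0.3 nM and DMSO libraries correlated at 0.04 to 0.19, so the numbers were not taken to pair them, although each 0.3 nM library correlated best with its own number. The median SE was 0.37 in 3052 genes under 10 CPM and 0.099 in 742 genes of 200 CPM or more.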

Other observations

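Targets of p53, the stress-responsive tumour suppressor, were lower in 15 of 20 tested members and higher in 5 at 0.3 nM, with a median log2 fold change of -0.12 and overlapping mean levels. The nuclease AEN stood at -0.40 (80.0 to 93.2 CPM at 0.3 nM, 106 to 126 CPM in DMSO), the cytokine GDF15 at -0.26 (440 to 510 CPM at 0.3 nM, 522 to 589 CPM in DMSO) and the death receptor TNFRSF10B at -0.22. In these 3 genes, in PHLDA3 and in SESN1 the groups did not overlap. At 1 nM AEN stood at -0.85 and GDF15 at -0.69. Among 18 endoplasmic reticulum stress genes 8 were higher and 10 lower, and 6 lay below all DMSO libraries, where 4.83% of all genes did. They were the chaperone genes CANX at -0.50, HYOU1 at -0.24 and HSPA5 at -0.12, the isomerase PDIA4 at -0.64, HERPUD1 at -0.21 and the transcription factor XBP1 at -0.22. The median over the list was -0.02. None of the 6 was called over all 36 libraries, and PDIA4 and CANX were called lower when only the 9 libraries compared were fitted.

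Lysosomal genes were higher in 17 of 27 tested members and lower in 10, with a median of 0.08, which was 0.04 without 0.3 nM replicate 1, against DMSO chip 2 alone and with the covariate and 0.05 without DMSO replicate 1 of both chips, and mean levels of 0.04 to 0.08 at 0.3 nM against -0.03 to 0.03 in DMSO. The protease CTSD stood at 0.15 and PSAP, the precursor of the saposins, at 0.20, both above all DMSO libraries, and the autophagy gene UVRAG stood at -0.54 below them. Colorectal markers were higher in 3 of 10 tested members and lower in 7, with a median of -0.09. CDX2, the intestinal transcription factor, stood at 0.27 (156 to 175 CPM at 0.3 nM, 128 to 151 CPM in DMSO), the keratins KRT8 and KRT18 at -0.29 and -0.17, and CEACAM5 at -0.36, and of these 4 only KRT8 overlapped with DMSO. Hexokinase HK2 stood at -0.29, below all DMSO libraries. Interferon genes were higher in 14 of 27 tested members and lower in 13, with a median of 0.02 and no member whose libraries did not overlap, and they stood at a median of 1.28 at 1000 nM.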
